A study of Mus musculus with 4 samples.

Results

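The 86 genes described here encode the proteins of the cytosolic ribosome, 34 of the small subunit (Rps) and 52 of the large subunit (Rpl). They were chosen by symbol among the 32285 genes of the count tables: Rpl or Rps followed by a number, plus Rpsa, Rplp0, Rplp1 and Rplp2. The rule left out 10 Rps6k genes, which encode kinases, and 5 symbols marked as pseudogenes. The rule itself uses no measured value. Rps19bp1 met the rule although its product binds a ribosomal protein and is not one, and Rps27rt is a retrogene copy of Rps27.

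The counts come from single-cell RNA sequencing of CD8+ PD-1+ CD44+ T cells that were sorted from the tumor-draining lymph node (TdLN), the node that receives lymph from the tumor. The study asked how combined radiotherapy and PD-L1 blockade act on these cells. All mice were female wild-type C57BL/6 animals, bought at 6 weeks of age, that carried B16F10GP melanoma, a B16F10 line made by lentiviral transduction to express the glycoprotein of lymphocytic choriomeningitis virus. The groups were RT + αPD-L1 (9022 cells compared), RT, which is irradiation of the tumor (8529 cells), αPD-L1, a blocking antibody given intraperitoneally (10186 cells), and untreated Control (8581 cells). Treated mice were sampled on day 7 after treatment. The radiation dose of this experiment was not clear from the sources used here.

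Each treatment was 1 library that pooled 5 mice, and each mouse was recognised by a hashtag antibody, so effects of the library and of the treatment cannot be told apart. After filtering, 39139 cells carried exactly 1 hashtag, and 36318 cells in T cell clusters were compared. Cells per mouse ranged from 133 (RT mouse 4, 1141921 UMIs) to 4331 (RT + αPD-L1 mouse 3, 35730132 UMIs). A UMI (unique molecular identifier) marks 1 captured RNA molecule. Library medians lay between 6437 and 7040.5 UMIs per cell, with median mitochondrial shares of 1.66% to 1.86%. Pairs of libraries shared 135 to 196 cell barcodes. The sort labels fitted the clusters unevenly, since Pdcd1, the gene of PD-1, and Cd44 were at 3.5 and 11.3 CPM (counts scaled to the UMI total) in the naive-like cluster, against 102.5 and 139.1 CPM in the chronically stimulated-like cluster.

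A ribosome reads mRNA with its small subunit and joins amino acids with its large subunit, and its proteins are needed in nearly equal numbers. Their mRNAs are among the most abundant of a cell, and many begin with a run of pyrimidines (the 5′ terminal oligopyrimidine, or TOP, signal) through which mTOR signaling and LARP1 control their translation. Quiescent T cells keep many of these mRNAs in store, and T cells that are activated and divide make ribosomes at a high rate.

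To show what the annotated transcription starts of these genes look like, the surrounding 30 bases (15 before and 15 from the start) are printed for members that recur in the results, from RefSeq promoter windows of GRCm38.p6. Capitals mark an oligopyrimidine tract, defined as a C followed by at least 4 bases that are each C or T, beginning within 5 bases of the start on the gene's own strand. Rps6, Rpl38, Rps27 and Rpl22l1 held such a tract. Rpl4, Rps12 and Rps28 held none that began within 5 bases of the start. Rpl4 and Rps12 show a run of that composition farther from the start, left in lower case. Each window is read 5′ to 3′ on the gene's strand.
Rps6, chr4:86857353-86857382, minus strand: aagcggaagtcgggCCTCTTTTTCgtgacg
Rpl38, chr11:114668565-114668594, plus strand: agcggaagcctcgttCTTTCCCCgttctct
Rps27, chr3:90213634-90213663, minus strand: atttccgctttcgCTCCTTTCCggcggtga
Rpl22l1, chr3:28805493-28805522, plus strand: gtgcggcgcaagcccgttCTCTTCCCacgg
Rpl4, chr9:64173372-64173401, plus strand: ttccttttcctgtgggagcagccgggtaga
Rps12, chr10:23787195-23787224, minus strand: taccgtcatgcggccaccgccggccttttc
Rps28, chr17:33824548-33824577, minus strand: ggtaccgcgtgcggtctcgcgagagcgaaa

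Of the 86 members, 66 matched an entry of that promoter table. The tract was found in 30 of them (45.5%), against 21.2% of the 27025 genes in the table. The core of the ETS motif (TTCCGG or its reverse complement CCGGAA), searched over 250 bases before to 50 bases after the start, was present in 36 members (54.5%), against 16.7% of all genes. The core of the YY1 motif (GCCATCTT, searched on both strands) was present in 6 members (9.09%), against 3.19% of all genes. Such matches describe the letters of the windows and were not tied to binding of any factor.

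The mRNAs of these genes made up a large part of the RNA that was captured. Summed over its cells, each mouse gave 28.01% to 32.38% of its UMIs to the 86 genes. In the order of mice 1 to 5, the share was 30.24%, 30.81%, 28.01%, 29.70% and 29.70% in RT + αPD-L1 mice. It was 31.43%, 30.55%, 30.25%, 31.78% and 30.35% in RT mice. The αPD-L1 mice, at 31.27%, 28.17%, 32.38%, 30.29% and 29.04%, held both the highest and nearly the lowest value of the series. Control mice had 30.82%, 29.999%, 28.89%, 31.004% and 30.51%. The group means were 29.7% ± 1.05 for RT + αPD-L1, 30.9% ± 0.691 for RT, 30.2% ± 1.68 for αPD-L1 and 30.2% ± 0.848 for Control (SD, n = 5 mice each). The 4 groups overlapped, and the range within αPD-L1 exceeded every difference between group means.

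**Figure D1:**
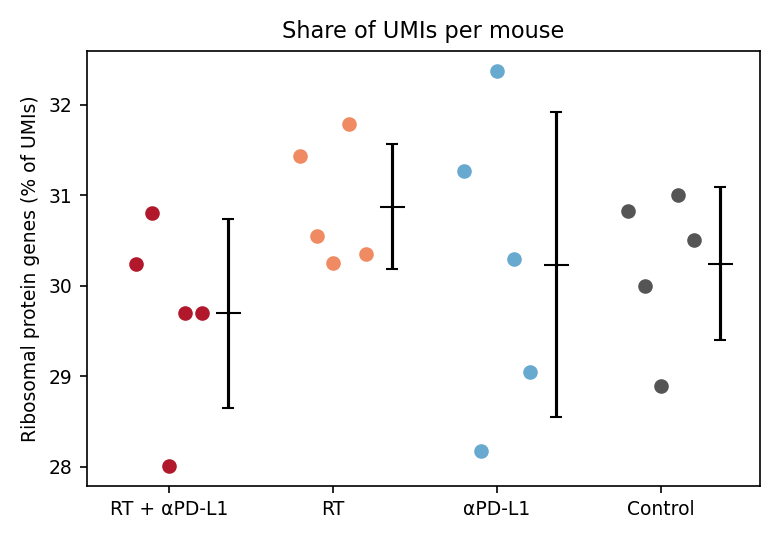
Share of UMIs from the 86 ribosomal protein genes (y axis, percent) in each mouse, with group means and SD. The x axis gives the treatments in the order RT + αPD-L1, RT, αPD-L1 and Control, 5 mice each, and the mice lie between 28.01% and 32.38% and the 4 groups overlap.

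In a sum over cells, a different mix of cell states cannot be told apart from a change within a state, and fewer cells of a type cannot be told apart from less RNA per cell. The cells were therefore also clustered, with the 86 genes left out of the clustering so that their levels could not define a cluster. Clusters were named from marker lists and are called by their leading genes where the markers did not decide. Cluster shares that follow are means over mice with at least 20 cells in the cluster and are given as a description, without a test.

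The share of ribosomal protein mRNA varied more between clusters than between treatments. The naive-like cluster, led by Igfbp4, Ccr9 and Klf2, had the highest share of the compared clusters at 36.1% ± 1.04 (SD, 20 mice). An unnamed cluster led by Capn3 and H2-Oa followed at 33.6% ± 0.707, and an unnamed cluster led by Hdac9 and Tubb2b had 32.6% ± 0.882 (17 mice). The interferon-like (LY6A+) cluster, led by Ifit3b, Ifit3 and Rsad2, had 32.5% ± 1.37 (14 mice). All 4 lay above the clusters named next. An unnamed cluster led by Srm, the gene of spermidine synthase, and Xcl1, a chemokine gene, had 30.9% ± 0.622. The chronically stimulated-like cluster had 27.8% ± 1.04 and the effector-like cluster, led by Ccl5, Ctla2a and S100a6, had 27.4% ± 0.678. The cycling G2/M-like cluster was lowest among the compared clusters of ordinary depth at 25.7% ± 1.01. The single-mouse ranges of the naive-like cluster (34.17% to 38.33%) and of the cycling cluster (23.08% to 27.04%) did not overlap.

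Depth differed between these clusters. Median UMIs per cell were 16127 in the cycling cluster, 11522 in the Srm-led cluster, 6079 in the effector-like cluster and 5044 in the naive-like cluster. The part of depth in the order of the shares was not tested, and the Srm-led cluster had a depth above all but the cycling cluster and a share between those of the Capn3-led and effector-like clusters. A further unnamed cluster of 2430 cells, led by the noncoding RNAs Gm26917 and Kcnq1ot1, gave only 6.37% ± 1.38 of its UMIs to ribosomal protein genes. Its cells had a median of 1712.5 UMIs and 6.43% mitochondrial UMIs. As a mean over mice, this cluster held 6.54% ± 1.11 of a mouse's cells in RT + αPD-L1 and 5.68% ± 1.21 in RT. It held 6.50% ± 0.981 in αPD-L1 and 6.37% ± 1.09 in Control (SD over mice).

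**Figure D2:**
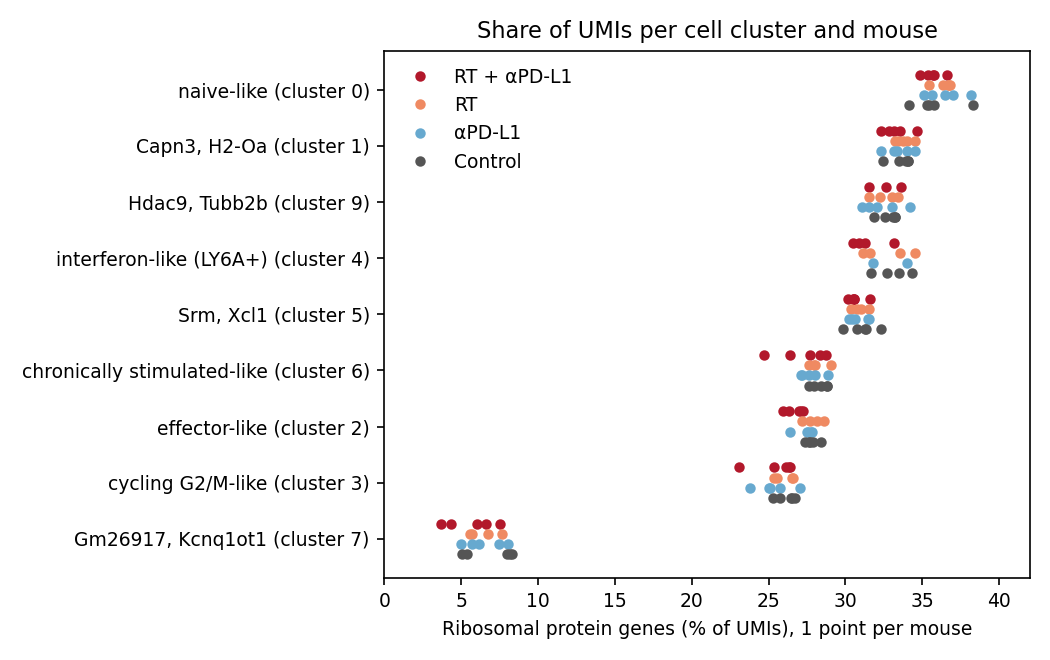
Share of UMIs from the 86 ribosomal protein genes (percent) in each mouse and cluster, for mice with at least 20 cells in the cluster, with 1 point per mouse, colored by treatment in the order RT + αPD-L1, RT, αPD-L1 and Control. The naive-like cluster averages 36.1%, the cycling cluster 25.7% and the cluster led by Gm26917 6.37%.

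The mix of clusters was then set beside the observed shares. When each cluster was given its share over all mice, the cluster make-up of a mouse alone predicted mean shares of 29.96% in RT + αPD-L1, 30.42% in RT, 30.17% in αPD-L1 and 29.89% in Control. The SD over the 20 mice was 0.598 percentage points for these predicted shares and 1.12 for the observed ones. Observed minus predicted shares averaged -0.262 ± 0.702 in RT + αPD-L1, 0.455 ± 0.346 in RT, 0.0620 ± 0.716 in αPD-L1 and 0.352 ± 0.636 in Control (percentage points, SD, n = 5 each). In RT + αPD-L1 mice 1 to 5 the difference was 0.171, 0.663, -1.10, -0.309 and -0.732, so the mice lay on both sides of 0, and the 4 groups overlapped. With each mouse left out in turn, an alternative chosen after seeing the data, the mean ranged from -0.493 to -0.0519 in RT + αPD-L1 (-0.0519 without mouse 3, -0.144 without mouse 5 and -0.493 without mouse 2), 0.335 to 0.544 in RT, -0.152 to 0.264 in αPD-L1 and 0.181 to 0.606 in Control (0.606 without mouse 3 and 0.181 without mouse 4). The αPD-L1 mean was thus below 0 without mouse 1 (-0.0579) or mouse 3 (-0.152), 0.264 without mouse 2, 0.225 without mouse 5 and 0.0311 without mouse 4.

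The members did not change by one factor between states. Against the naive-like cluster, 63 of the 80 members with at least 100 CPM were lower in the effector-like cluster in every mouse than in any mouse of the naive-like cluster, and 0 were higher in that way. The median ratio of effector-like to naive-like CPM was 0.776, with a range of 0.579 to 1.43. In the cycling cluster 62 members were lower and 4 were higher without overlap, and the median ratio was 0.720. Rps27l, Rpl41 and Rps2 were among those 4. Rpl41, Rps2, Rps24, Rps28 and Rpl26 were chosen for naming after their values were seen. In the chronically stimulated-like cluster 55 were lower and 0 higher (median ratio 0.790). In the interferon-like cluster 6 were lower and 0 higher (median ratio 0.911). The other clusters were not set against naive-like cells in this way. Other genes were not counted in this way either, so the counts do not show whether such separation was particular to the members.

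Rps27l, a paralog of Rps27 that p53 is known to induce, varied most between clusters, with a coefficient of variation of cluster means of 62.7%. It had 296 ± 19.3 CPM in the Srm-led cluster, 225 ± 22.9 CPM in cycling cells, 126 ± 11.8 CPM in effector-like cells, 85.1 ± 7.32 CPM in the Capn3-led cluster and 88.3 ± 14.7 CPM in naive-like cells (SD over mice). Rps27 itself, a small subunit protein with a zinc finger, ran the other way. It had 1971 ± 127 CPM in cycling cells, 2434 ± 180 CPM in the Srm-led cluster, 3404 ± 228 CPM in effector-like cells and 4830 ± 285 CPM in naive-like cells. The retrogene copy Rps27rt was likewise lowest in cycling and highest in naive-like cells among those clusters, with 32.0 CPM in cycling and 78.7 CPM in naive-like cells. Since 311 of the 344 stretches of 31 bases in its transcript (90.4%) also occur in Rps27, reads of the pair may have been assigned to either, and the level of Rps27rt is uncertain.

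Rps24, a small subunit protein needed for processing of the small subunit rRNA, had 5328 CPM in cycling cells and 11921 CPM in naive-like cells. Rpl41, which encodes the shortest ribosomal protein, had 1777 CPM in the Srm-led cluster and 883 CPM in effector-like cells. The members that varied least across the 9 T cell clusters were Rpl4 (26.9%), Rpl7a (27.6%) and Rpsa (28.7%). Without the low-depth Gm26917-led cluster, the coefficient of variation of Rpsa, which also encodes a laminin-binding protein, was 6.86%, the smallest of the 80 members. Over all 80 members the median fell to 13.4% in 8 clusters, against 32.4% in 9. That 1 cluster thus carried much of the spread of a typical member. In the 8 clusters Rpl4 had 11.3% and Rpl7a 8.69%. As a share of the member UMIs alone, the median coefficient of variation was 6.78% in the 8 clusters (range 2.10% to 60.3%). By that measure Rpl4 (11.6%), Rpl7a (11.5%) and Rpsa (9.91%) all lay above the median, so their place as least variable depends on the measure.

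**Figure D3:**
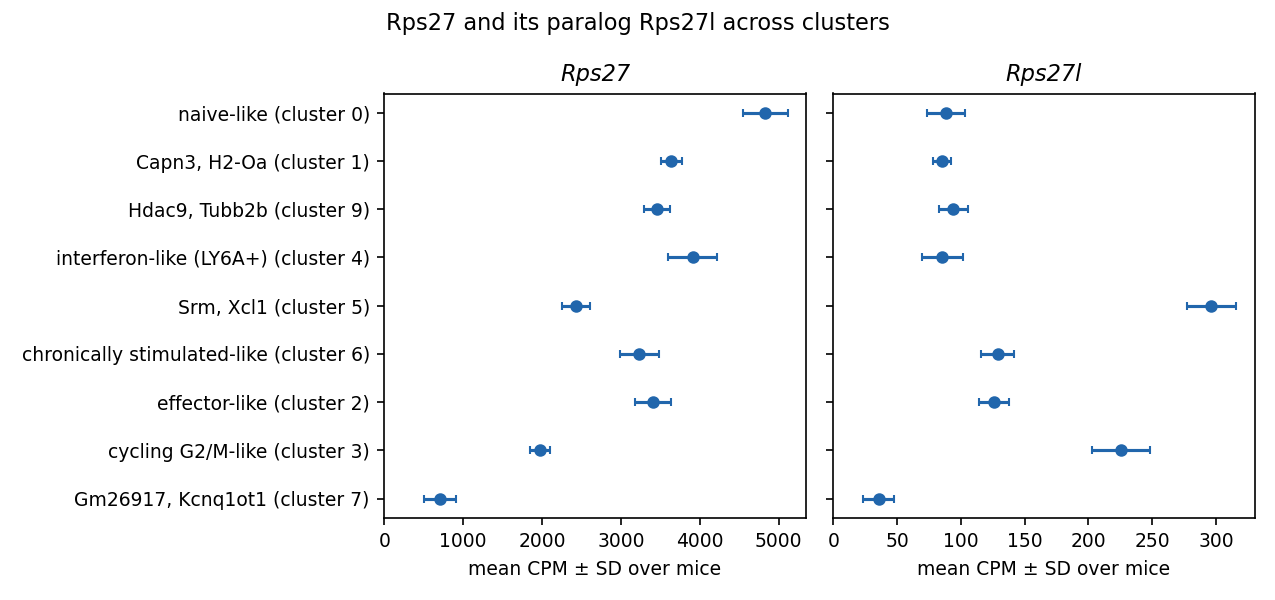
Mean level over mice (x axis, CPM) of Rps27 and Rps27l in each of 9 T cell clusters (y axis), with SD over mice as bars. Rps27l is highest in the Srm-led cluster at 296 CPM and Rps27 in the naive-like cluster at 4830 CPM.

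Paralogs did not follow their partners in every case. Rpl22, needed for the development of αβ T cells in mice, had 1984 ± 85.1 CPM in effector-like cells and 2269 ± 70.7 CPM in naive-like cells. Rpl22l1, its paralog, had 756 ± 56.8 CPM in effector-like cells and 1041 ± 66.1 CPM in naive-like cells. In cycling cells Rpl22 had 1771 CPM, below its naive-like level, and Rpl22l1 had 1037 CPM, beside its naive-like level. Rpl36a had 1397 ± 101 CPM in effector-like cells and 2315 ± 99.5 CPM in naive-like cells. Rpl36al had 961 ± 36.6 CPM in effector-like cells and 944 ± 38.9 CPM in naive-like cells. Rpl10l and Rpl3l, known from testis and from muscle, were at 0 and 2 UMIs over all compared cells, and Rps4l was not among the genes of the tables.

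Treatments were then compared with edgeR on counts summed per mouse, in 1 fit of all 20 mice with adjustment over all 11925 tested genes. Genes with an adjusted p under 0.05 were called, and 84 of the 86 members were tested, all but Rpl10l and Rpl3l. The question was which members differed after combined treatment. In RT + αPD-L1 minus Control, 4 of 84 members were lower, against 2.61% of all genes, and 0 were higher, against 5.69% of all genes. Rpl4, Rps6 and Rps12 were among the 4. At an unadjusted p under 0.05 there were 11 members, against 22.7% of all genes. Of the tested genes, 80 members and 1306 others reached 100 CPM. The background in these comparisons of whole mice is thus mostly of genes below the members' level, and was not matched to it. The median log2 change over the 84 members was -0.02 (29 positive), beside -0.0049 over all genes.

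Rpl4, a large subunit protein whose extension lines the exit tunnel, had the smallest p. Its gene lies at chr9:64173375-64178666 on the plus strand (GENCODE M21, GRCm38). In the order of mice 1 to 5 it had 1316, 1293, 1225, 1327 and 1286 CPM in RT + αPD-L1 mice, against 1518, 1473, 1410, 1482 and 1448 CPM in Control mice. Every RT + αPD-L1 mouse lay below every Control mouse. The RT mice had 1406, 1382, 1335, 1413 and 1380 CPM, and the αPD-L1 mice had 1357, 1280, 1353, 1326 and 1334 CPM. The αPD-L1 mice overlapped the combination, and 1 RT mouse reached the lowest Control mouse. Rpl4 fell by 11.5% in RT + αPD-L1 relative to Control, a log2 change of -0.18 ± 0.036 (SE; edgeR quasi-likelihood, Benjamini-Hochberg adjusted p = 0.00434).

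Rps6, the small subunit protein that S6 kinases phosphorylate, lies at chr4:86854660-86857412 on the minus strand. It had 2055, 2040, 1897, 1997 and 1997 CPM in RT + αPD-L1 mice, against 2284, 2267, 2105, 2318 and 2244 CPM in Control mice. The ranges did not overlap. The RT mice had 2152, 2075, 2042, 2152 and 2115 CPM and the αPD-L1 mice 2082, 1939, 2095, 1999 and 2009 CPM, and both groups overlapped the combination. Rps6 fell by 10.4% in RT + αPD-L1, a log2 change of -0.16 ± 0.041 (edgeR adjusted p = 0.0201).

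Rps12, a small subunit protein, lies at chr10:23785183-23787275 on the minus strand. It had 4449, 4346, 4020, 4376 and 4316 CPM in RT + αPD-L1 mice, against 4897, 4774, 4544, 4853 and 4837 CPM in Control mice. The groups did not overlap here either. The RT mice had 4715, 4457, 4459, 4976 and 4559 CPM, above the combination, and the αPD-L1 mice had 4431, 4188, 4411, 4348 and 4310 CPM. Rps12 fell by 9.49% in RT + αPD-L1, a log2 change of -0.14 ± 0.043 (edgeR adjusted p = 0.0392). These calls differed in how much they depended on single mice. Rpl4 was called in 20 of 20 fits that left out 1 mouse, Rps6 in 17 and Rps12 in 13. Rps6 was lost without RT + αPD-L1 mouse 3 or Control mouse 1 or 4, and Rps12 without RT + αPD-L1 mouse 3, 4 or 5 or Control mouse 1, 2, 4 or 5. Assigning cells to mice with HTODemux instead left only Rpl4 called. Control mouse 1 then had 416 cells in place of 2040, and RT + αPD-L1 mouse 3 had 2192 in place of 4331.

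**Figure D4:**
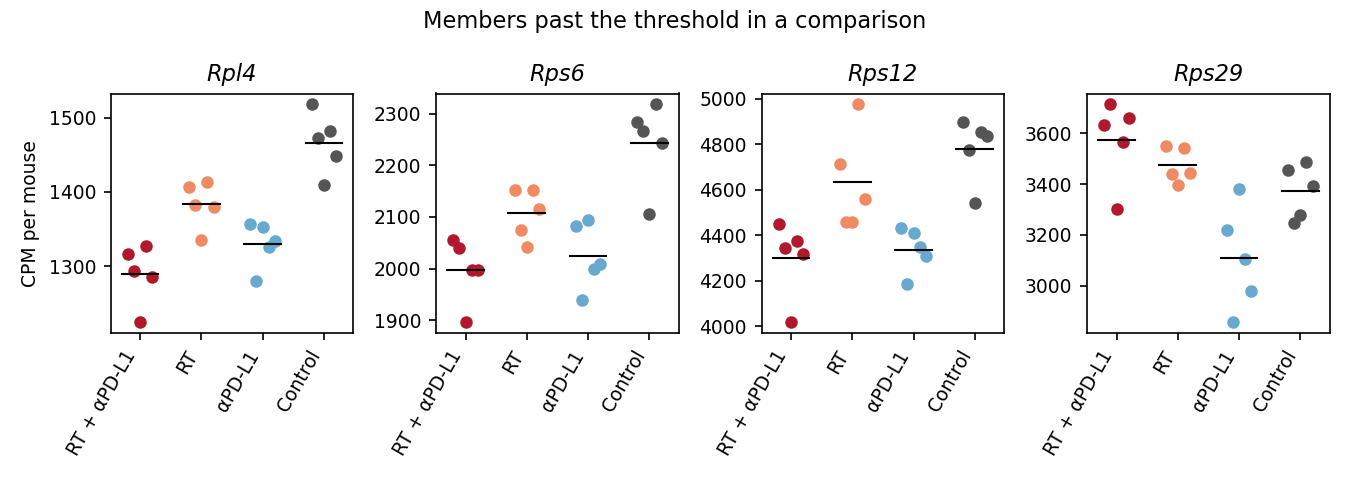
Level (CPM) of Rpl4, Rps6, Rps12 and Rps29, which were called in a comparison, in each mouse, with lines for group means and treatments in the order RT + αPD-L1, RT, αPD-L1 and Control. For Rpl4, Rps6 and Rps12 every RT + αPD-L1 mouse lies below every Control mouse, and Rps29 is higher in RT + αPD-L1 than in αPD-L1 with overlapping mice.

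The next members by p did not pass. Rpl38, a large subunit protein known in mice for selective translation of Hox mRNAs, had 2236, 2371, 2194, 2258 and 2228 CPM in RT + αPD-L1 mice, against 2086, 2028, 1964, 2090 and 2116 CPM in Control mice. These ranges did not overlap, but the log2 change of 0.14 ± 0.049 had an edgeR adjusted p of 0.0759. Rps2 had a log2 change of -0.12 and an edgeR adjusted p of 0.0794. The largest positive value, 0.25 for Rpl39l, rested on 255 UMIs over all mice.

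Fewer members passed the adjusted threshold of edgeR in the other comparisons. In RT minus Control, 0 of 84 members were called by edgeR, DESeq2 and limma, against 0.109% of all genes by edgeR. At an unadjusted p there were 6 members, against 9.51% of all genes, and 62 of 84 log2 changes were positive with a median of 0.03. In αPD-L1 minus Control, edgeR and limma called 0 members and DESeq2 called 1, against 0.436% of all genes by edgeR. At an unadjusted p there were 8, against 13.9% of all genes. The members called after the combination also had low values here, since Rpl4 had a log2 change of -0.14 (edgeR adjusted p = 0.0966) and Rps6 of -0.14 (edgeR adjusted p = 0.122). These comparisons and RT + αPD-L1 minus Control share the 5 Control mice, so their likeness is no independent evidence.

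Against single treatments, in RT + αPD-L1 minus RT 0 members were called by edgeR and limma and 1 by DESeq2, against 2.97% of all genes by edgeR. At an unadjusted p there were 15 members, against 15.3% of all genes, and 9 of 84 log2 changes were positive with a median of -0.06. In RT + αPD-L1 minus αPD-L1, 1 member was higher, against 1.99% of all genes, and at an unadjusted p there were 4 members, against 12.2% of all genes. The called member was Rps29, a small subunit protein with a zinc finger (chr12:69157722-69159186, minus strand). It had 3632, 3714, 3303, 3567 and 3662 CPM in RT + αPD-L1 mice, against 3218, 2858, 3382, 3105 and 2979 CPM in αPD-L1 mice. One RT + αPD-L1 mouse (3303 CPM) lay below the highest αPD-L1 mouse (3382 CPM), and the log2 change was 0.21 ± 0.050, a rise of 15.3% (edgeR adjusted p = 0.0251). The call was lost without RT + αPD-L1 mouse 2 or αPD-L1 mouse 2, 4 or 5, and 3 members were called without αPD-L1 mouse 3. The RT mice had 3550, 3438, 3397, 3541 and 3443 CPM and the Control mice 3455, 3247, 3280, 3489 and 3393 CPM. Rpl38 (log2 change 0.17, adjusted p = 0.0902) and Rps28 (0.18, adjusted p = 0.0904) came next in that edgeR test. Annotated transcripts of these genes are short, with 390 bases for Rps29, 457 for Rpl38 and 437 for Rps28. Over 80 members, length and log2 change had a Spearman rank correlation of -0.347 in this comparison, against -0.0545 in RT + αPD-L1 minus Control. Log2 changes here were positive in 10 of the 20 shortest and 3 of the 20 longest members. The part of length in these values was not tested. For the excess of RT + αPD-L1 over the sum of RT and αPD-L1, 0 members were called by edgeR, DESeq2 and limma, against 0.897% of all genes by edgeR, and 7 at an unadjusted p, against 11.4% of all genes.

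Of the members named for a role, such as one outside the ribosome or a paralog, Rps6 passed in RT + αPD-L1 minus Control, as given above, and the following did not. Rpsa averaged 7929 ± 331 CPM in RT + αPD-L1 mice and 8285 ± 228 CPM in Control mice. Rps27a, made as a fusion with ubiquitin, averaged 4759 ± 203 CPM in RT + αPD-L1 mice and 4832 ± 119 CPM in Control mice. The stalk proteins that recruit elongation factors gave 6698 ± 167 CPM (Rplp0), 6071 ± 240 CPM (Rplp1) and 3823 ± 117 CPM (Rplp2) in RT + αPD-L1 mice. In Control mice they gave 7067 ± 223 CPM (Rplp0), 6433 ± 190 CPM (Rplp1) and 3897 ± 82.8 CPM (Rplp2). For each of these genes the mice of both groups overlapped. Rpl5 and Rpl11, which with 5S rRNA can bind Mdm2, averaged 1357 ± 62.2 and 4135 ± 133 CPM in RT + αPD-L1 mice and 1433 ± 47.1 and 4171 ± 125 CPM in Control mice. Rpl3, which lies at the peptidyl transferase center, averaged 2803 ± 111 CPM in RT + αPD-L1 mice and 3020 ± 131 CPM in Control mice (edgeR adjusted p = 0.249). Rpl7 averaged 1971 ± 85.2 CPM in RT + αPD-L1 mice and 2124 ± 44.5 CPM in Control mice (edgeR adjusted p = 0.159). The paralogs Rps27 and Rps27l had 3197 ± 171 and 145.9 ± 11.7 CPM in RT + αPD-L1 mice and 3128 ± 117 and 154.1 ± 4.86 CPM in Control mice. Rpl22 and Rpl22l1 had 2037 ± 65.3 and 962.2 ± 53.9 CPM in RT + αPD-L1 mice and 2060 ± 37.7 and 992.6 ± 28.7 CPM in Control mice. None of these pairs passed the test, and their mice overlapped. The small spread between mice set the scale of these comparisons. Members with at least 100 CPM had a median coefficient of variation within groups of 3.93%, against 5.37% for 1306 other genes above that floor. Both sets share only the floor and were not matched in level, as the tested members had a median of 3802 CPM. The part of level in this difference was not tested.

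Within clusters, the combination was compared with Control in the same way, in 7 clusters with enough mice. This keeps the cluster mix apart from change within a cluster. The interferon-like and Hdac9-led clusters had fewer than 4 mice with 20 cells in some group and were not fitted. The interferon-like cluster held 23.2% ± 19.8 of the cells per mouse in RT + αPD-L1 against 3.01% in Control. By edgeR 0 members were called higher in any of the 7 clusters, and 0 to 2 per cluster at an unadjusted p. DESeq2 called 1 higher in the Capn3-led and 1 in the cycling cluster. Over all genes, edgeR called 60 of 8329 higher in naive-like, 53 of 9363 in Capn3-led and 25 of 8508 in effector-like cells. It called 168 of 9818 in cycling, 92 of 9085 in Srm-led, 44 of 8499 in chronically stimulated-like and 110 of 5956 in Gm26917-led cells. These shares are small, so 0 among 80 or 83 members is near them and is no result about the members. The share of all genes higher at an unadjusted p was not counted.

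In the effector-like cluster 5 of 83 members (6.02%) were lower, against 0.141% of all genes and 0.703% of genes with at least 100 CPM. The 5 were Rps6, Rpl4, Rpl7, Rps19 and Rps12. At an unadjusted p, 40 members (48.2%) were lower, against 4.67% of all genes and 10.3% of genes of that level. The median log2 change was -0.09 and 76 of 83 were negative. All members were measured in the same mice, so such counts, here and in the clusters below, are not independent pieces of evidence. In mice 1 to 5 Rpl4 had 1063, 1173, 1153, 1218 and 980.2 CPM in RT + αPD-L1 effector-like cells, against 1324, 1383, 1304, 1318 and 1254 CPM in Control. Rps6 had 1591, 1752, 1716, 1754 and 1550 CPM in RT + αPD-L1, against 2064, 2046, 1763, 2027 and 1923 CPM in Control. Neither gene overlapped between the groups. The log2 changes were -0.25 ± 0.057 for Rpl4 (edgeR adjusted p = 0.0368) and -0.25 ± 0.052 for Rps6 (edgeR adjusted p = 0.0323). The number called fell to 0 when RT + αPD-L1 mouse 3 or 5, or Control mouse 1, 2, 4 or 5 was left out, to 1 without Control mouse 3 and to 2 without RT + αPD-L1 mouse 1 or 4. DESeq2 called 12. The share of ribosomal protein mRNA in effector-like cells was 26.7% ± 0.551 in RT + αPD-L1 and 27.8% ± 0.389 in Control.

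The Capn3-led cluster gave 2 lower members (2.41%), against 0.545% of all genes and 2.05% of genes with at least 100 CPM. The share called was thus near that of genes above this floor. The 2 members were Rpl4 and Rps6 again. At an unadjusted p, 25 members (30.1%) were lower, against 6.4% of all genes and 15.9% of genes with at least 100 CPM. The median log2 change was -0.04 and 61 of 83 were negative. Rpl4 had 1369, 1294, 1311, 1322 and 1299 CPM in RT + αPD-L1, against 1538, 1484, 1462, 1527 and 1483 CPM in Control, without overlap. Its log2 change was -0.21 ± 0.036 (edgeR adjusted p = 0.000926), and that of Rps6 was -0.20 ± 0.039 (edgeR adjusted p = 0.00428). In the cycling cluster 2 members (2.41%) were lower, Rps6 and Rpl4, against 0.469% of all genes and 0.678% of genes with at least 100 CPM. There 15 members (18.1%) were lower at an unadjusted p, against 6.52% of all genes and 8.0% of genes with at least 100 CPM. Of the log2 changes of members in cycling cells, 67 of 83 were negative. The count of 2 fell to 0 without RT + αPD-L1 mouse 3 or Control mouse 1 or 2, and to 1 without RT + αPD-L1 mouse 2 or Control mouse 4 or 5. In the Srm-led cluster 1 member (1.2%) was lower, Rpl4, against 0.319% of all genes and 0.699% of genes with at least 100 CPM. Here 12 members (14.5%) were lower at an unadjusted p, against 4.24% of all genes and 7.34% of genes with at least 100 CPM. Of the log2 changes of members in Srm-led cells, 66 of 83 were negative. The Srm-led call was lost without RT + αPD-L1 mouse 2, 3, 4 or 5 or Control mouse 1, 2 or 4.

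In the other clusters 0 members were called lower by edgeR. In naive-like cells 9 (10.8%) were lower at an unadjusted p, against 4.85% of all genes and 9.8% of genes with at least 100 CPM. The share of members is near that of genes above this floor. The background called there was 0.396%, and 61 of 83 log2 changes were negative. In chronically stimulated-like cells 27 (32.5%) were, against 3.21% of all genes and 7.22% of genes with at least 100 CPM, with a background of 0.0471% called, and 74 of 83 log2 changes were negative. Rpl26, a large subunit protein, had the smallest p there (log2 change -0.22, edgeR adjusted p = 0.114). In the Gm26917-led cluster 8 of 80 were lower at an unadjusted p, against 3.49% of all genes and 3.89% of genes with at least 100 CPM, with a background of 0.0504% called. Its median log2 change over the members was -0.22, with 77 of 80 negative, and its share was 5.64% ± 1.58 in RT + αPD-L1 and 6.98% ± 1.62 in Control. DESeq2 also called 0 members in these 3 clusters. The same direction in several clusters is not independent, as the clusters come from the same mice and libraries.

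**Figure D5:**
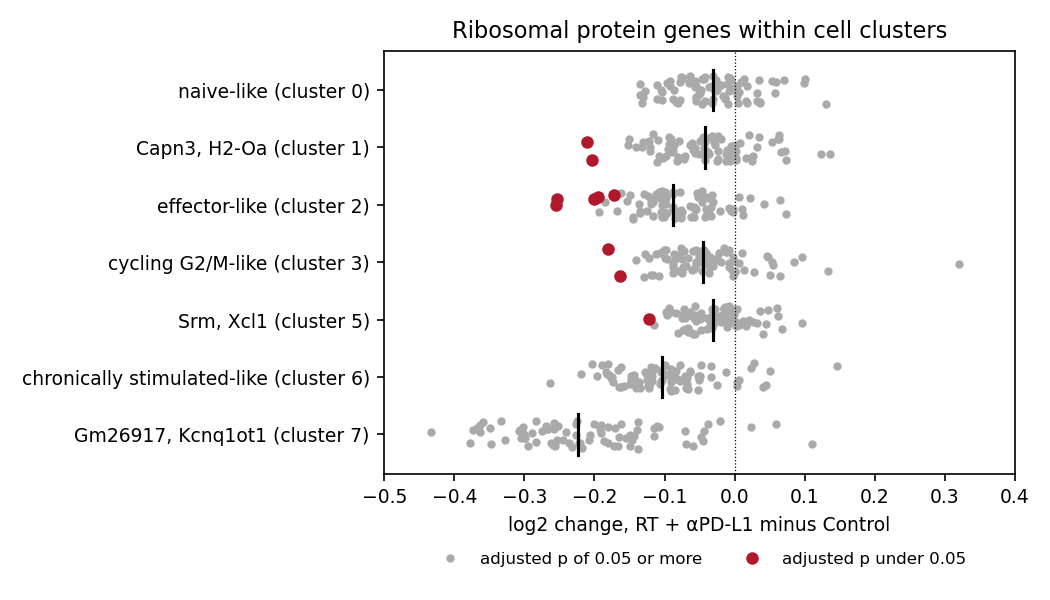
Log2 change of each member in RT + αPD-L1 minus Control within each of 7 clusters (edgeR), with called members in red and black lines at the median. Most members are below 0 in each of the 7 clusters, with 61 of 83 in the naive-like and Capn3-led clusters, 66 in the Srm-led, 67 in the cycling, 74 in the chronically stimulated-like and 76 in the effector-like cluster, and 77 of 80 in the Gm26917-led cluster.

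Other genes of the pathway were read from lists of translation and ribosome synthesis genes. In RT + αPD-L1 minus Control, 3 of 21 genes for elongation factors and other TOP mRNAs were lower and 0 higher. Over all genes 2.61% were lower, 5.69% were higher and 22.7% had an unadjusted p under 0.05, which is the background of each list here. The 3 were Eif4b, an initiation factor that stimulates the helicase eIF4A (log2 change -0.28 ± 0.055, edgeR adjusted p = 0.00337), Eif3l (-0.19 ± 0.043, adjusted p = 0.0106) and Eef1g (-0.17 ± 0.041, adjusted p = 0.0124). Of 45 ribosome biogenesis genes 0 were called by edgeR and 4 had an unadjusted p under 0.05. Npm1 and Ncl, abundant nucleolar proteins, had log2 changes of -0.11 and -0.15. Of 18 genes of RNA polymerases I and III 0 were called and 1 had an unadjusted p under 0.05. Of 13 snoRNA host genes 0 were called and 0 had an unadjusted p under 0.05. Among 18 regulators 1 was higher, Rheb, the activator of mTORC1 (0.20 ± 0.049, edgeR adjusted p = 0.0145), and 1 lower, Mycn, at a level of 0.741 CPM. Myc had a log2 change of -0.04. Of 78 mitochondrial ribosomal protein genes 1 was higher, Mrpl30 (0.22 ± 0.068, edgeR adjusted p = 0.0450), and 0 lower. Fau and Rack1, whose proteins also sit on the small subunit but whose symbols do not meet the rule, had log2 changes of 0.10 (edgeR adjusted p = 0.214) and -0.07 (edgeR adjusted p = 0.381). In RT + αPD-L1 minus RT, Eif4b (log2 change -0.23, edgeR adjusted p = 0.0243) and Pabpc1, the poly(A)-binding protein (-0.16, adjusted p = 0.0318), were lower among the 21 translation genes, against 2.97% of all genes called in either direction.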

How the data were processed

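The deposited files hold unnormalized UMI counts of genes and hashtags by barcode, from Cell Ranger (6.1.2 in the matrix headers, another version in the methods) on mm10. The labels name a 3′ kit. Of 47820 barcodes 43971 passed the filter, which required 500 to 5000 genes, a mitochondrial share under 10% and no more than 40000 UMIs. Mice were assigned by the emptiest count bin between the background and positive modes of each hashtag, and barcodes with several hashtags (7.94%) were left out as doublets. Doublets within 1 mouse were not removed. This departs from HTODemux, which the study's methods name and which was run as an alternative (Seurat 5.3.0). Cells were clustered on 2000 variable genes without the 86 members (20 principal components, 15 neighbors, Leiden resolution 0.6, scanpy 1.11.5, leidenalg 0.10.2). γδ T cell-like, dendritic cell-like, B cell-like and Klra7-led clusters were left out.

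Counts were summed per mouse and tested with edgeR 4.0.16 (TMM, filterByExpr, quasi-likelihood F test, two-sided, R 4.3.3). Genes were called at a Benjamini-Hochberg adjusted p under 0.05. DESeq2 1.42.0 and limma 3.58.1 were alternatives. CPM are counts scaled to the UMI total of the mouse. UMIs were not divided by transcript length, so levels of different genes were not ranked. Mice were the replicates. Scripts were tested on simulated data. Members, gene lists, marker lists and tests were chosen with earlier results of these data known. Named genes were those called in any comparison, the largest and smallest changes, genes fixed by role, the most and least variable across clusters, and up to 4 per list. The naive cells sorted as a control were not analysed here. Some genes that the rule names are not reported here by name, but they stay in the counts and sums.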

Additional observations from a re-analysis of the deposited data

Results flagged for a closer look

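Among 112 sets of 5 mice, 7 held a mouse far from the other 4 by Dixon's test (critical value 0.71), and chance gives about 1 in 20 of such sets. Control mouse 3 was the low one in 3 of them, with 6674 CPM of Rplp0, 2793 CPM of Rpl3 and 840.4 CPM of Rpl36al. RT + αPD-L1 mouse 1 stood apart at 3.5 CPM of Rpl39l and at 36.24 CPM of Rpl7l1. RT + αPD-L1 mouse 5 had 1594 CPM of Rpl7a and RT mouse 5 had 868 CPM of Rpl36al.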

How the results depend on the processing

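With library totals alone in place of TMM factors, 8 members were called in RT + αPD-L1 minus Control (1 higher and 7 lower, against 4), 5 in RT + αPD-L1 minus RT (against 0), 2 in αPD-L1 minus Control (against 0) and 3 in RT + αPD-L1 minus αPD-L1 (against 1). With HTODemux, 1 remained in RT + αPD-L1 minus Control. Control mouse 1 then had 416 cells against 2040, with a share of 28.99% against 30.82%. RT mouse 1 had 99 cells against 802. RT + αPD-L1 mouse 3 had 2192 cells against 4331. In the main assignment the hashtag boundary of Control mouse 1 lay at a log10 count of 1.5, against 2.5 to 2.8 for the other Control mice. That of RT + αPD-L1 mouse 3 lay at 2.0, against 2.5 to 2.8 for the other mice of its group. Mouse 1 was lowest in RT (1.8) and in αPD-L1 (1.9). The HTODemux group shares were 29.71% in RT + αPD-L1 and 29.77% in Control. DESeq2 gave 1 in αPD-L1 minus Control, 1 in RT + αPD-L1 minus RT, 8 in the Capn3-led cluster (against 2) and 12 in the effector-like cluster (against 5). Without cycling cells 1 was called in RT + αPD-L1 minus RT, and the shares were 30.87% in RT + αPD-L1, 32.04% in RT and 31.48% in Control. The median over cells gave a share of 4.536% in the Gm26917-led cluster and 32.56% in the Klra7-led cluster. The cause was not tested. Shares over all genes were given only for the main edgeR fits. Counts under other settings, or with 1 mouse left out, thus do not show whether members differed from other genes.

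Leaving out 1 mouse at a time gave 1 to 5 members in RT + αPD-L1 minus Control (2 without RT + αPD-L1 mouse 3 or Control mouse 4, 1 without Control mouse 1), 0 to 0 in RT minus Control, 0 to 0 in αPD-L1 minus Control, 0 to 1 in RT + αPD-L1 minus RT (1 without RT + αPD-L1 mouse 1, RT mouse 3 or Control mouse 3), 0 to 3 in RT + αPD-L1 minus αPD-L1 (0 without RT + αPD-L1 mouse 2 or αPD-L1 mouse 2, 4 or 5, and 3 without αPD-L1 mouse 3), and 0 to 0 for the excess. Within clusters it gave 0 to 0 in naive-like, 2 to 6 in Capn3-led (6 with RT + αPD-L1 mouse 2 left out and 4 with Control mouse 3 left out), 0 to 4 in effector-like, 0 to 3 in cycling, 0 to 1 in Srm-led, 0 to 1 in chronically stimulated-like (1 without RT + αPD-L1 mouse 1 or 2) and 0 to 0 in Gm26917-led cells. Shares ranged from 29.42% to 30.11% in RT + αPD-L1, 30.64% to 31.03% in RT, 29.69% to 30.74% in αPD-L1 and 30.05% to 30.58% in Control.

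No called value changed sign. The fits without the low-depth clusters and the other settings within clusters were chosen after seeing the data. Without the low-depth clusters the calls were the same 4 and 1 members. No paired analysis was possible because the labels give no replicate numbers shared between treatments.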
